A study of Mus musculus with 6 samples.

Results

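The heat shock protein and co-chaperone genes were examined in myotubes, the fused muscle fibres that form from C2C12 mouse myoblasts, an established cell line, when serum is lowered. Members were taken by gene name: the HSPA, HSPB, HSPD, HSPE, HSPH and HSP90 symbols, the DNAJA, DNAJB and DNAJC symbols, Bag1 to Bag6, Hsf1, Hsf2, Stip1, Ahsa1, Chordc1, Fkbp4 and Cryab. Of 24411 symbols in the count files, 85 matched, and 78 of these had at least 10 counts in at least 3 libraries and were kept. All 78 were among the 13076 genes tested. Dnajc22 lay just inside that minimum with 12, 7 and 8 counts under DMSO and 8, 16 and 16 counts under Sardomozide. Outside it, Dnajb13 and Dnajc5b had 1 count in Sardomozide replicate 1 and 0 elsewhere, and Dnajb3, Dnajb7, Dnajb8, Dnajc5g and Hspb9 had 0 counts in all 6 libraries, which allows a level of up to 0.0823 to 0.118 CPM across libraries, CPM being the count scaled to the size of its library.

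The cultures were wild type and fully differentiated, and both groups were kept in medium with horse serum. Sardomozide, which blocks the polyamine synthesis enzyme S-adenosylmethionine decarboxylase (Amd1), was given to one group at 10 µM for 72 h, and the other group received the solvent DMSO for the same time. There were 3 libraries per group, and the labels do not say whether these came from separate cultures, so the p-values rest on a spread between libraries that may be only technical. The comparison asks how transcript levels differ when the enzyme is inhibited in muscle fibres of a single cell line.

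Heat shock proteins are chaperones that bind unfolded or partly folded proteins. Small heat shock proteins, which share an alpha-crystallin domain, hold unfolding clients without using ATP, and in muscle they sit on filaments and at Z-discs. The HSP70 proteins fold clients in cycles of ATP hydrolysis that J-domain proteins (HSP40) start and that nucleotide exchange factors, namely the HSP110 and BAG proteins, bring to an end. HSP90 completes the folding of kinases, receptors and myosin with the help of co-chaperones, and the HSP60 and HSP10 pair forms a folding chamber in mitochondria. The transcription factor HSF1 induces many of these genes under stress through heat shock elements, in which the unit GAA and its reverse TTC alternate at short spacing.

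The promoters were searched for such elements, because they are the regulatory letters that many members are known to share. RefSeq promoters (build GRCm38.p6, 250 bases before to 50 after each start) were found for 62 of the 78 members. No entry was matched for Bag4, Cryab, Dnajc2, Dnajc5, Dnajc11, Dnajc12, Dnajc18, Dnajc22, Dnajc30, Hsf1, Hsp90aa1, Hsp90ab1, Hspa8, Hspa9, Hspa13 and Hspb2. The 2-unit motifs searched were GAANNTTC and TTCNNGAA, each of which reads the same on both strands, and the 3-unit motif extends either of them by a further alternating unit after any 2 bases, so that it overlaps them. A 2-unit motif was present in 18 of the 62 (29.0%), against 13.7% of the 9928 tested genes with a promoter and 17.0% of all 27025 genes in the table. A 3-unit motif was present in 5 of the 62 (8.06%), against 0.574% of tested genes. Among small heat shock protein genes 4 of 5 with a promoter held a 2-unit motif, Hspb7 being the exception. The windows below show those 4 genes, the mitochondrial pair's shared element and the inducible HSP70 gene Hspa1b, each 5′ to 3′ on the gene's strand with the motif in capitals. Positions count back from the start, −1 being the base before it.
Hspb1, chr5:135887789-135887888, plus strand: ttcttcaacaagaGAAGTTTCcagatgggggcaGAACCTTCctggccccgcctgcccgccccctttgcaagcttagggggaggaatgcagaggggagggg
Hspb8, chr5:116422845-116422944, minus strand: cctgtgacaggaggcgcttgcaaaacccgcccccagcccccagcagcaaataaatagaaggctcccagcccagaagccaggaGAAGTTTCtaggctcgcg
Hspb6, chr7:30553151-30553250, plus strand: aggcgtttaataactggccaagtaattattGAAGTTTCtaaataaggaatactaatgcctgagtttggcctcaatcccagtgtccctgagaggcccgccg
Hspb3, chr13:113663827-113663926, minus strand: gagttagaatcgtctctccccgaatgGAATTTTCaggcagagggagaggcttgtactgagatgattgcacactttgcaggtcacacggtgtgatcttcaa
Hspe1, chr1:55088028-55088107, plus strand: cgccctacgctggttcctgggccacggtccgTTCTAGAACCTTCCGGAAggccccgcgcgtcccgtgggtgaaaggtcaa
Hspa1b, chr17:34959269-34959368, minus strand: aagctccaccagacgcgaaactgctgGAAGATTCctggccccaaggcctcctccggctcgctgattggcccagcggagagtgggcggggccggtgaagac

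The motifs of Hspb1 began at −117 and −97 and that of Hspa1b at −104. In Hspb8 the motif began 3 bases into the transcript. The Hspe1 window holds an unbroken alternation of units from −89 to −72, the run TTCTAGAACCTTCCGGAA. Hspd1 lies head to head with Hspe1, with RefSeq starts 216 bases before and 95 bases after the Hspe1 start. The same run stands in the promoter window of Hspe1 and in that of the former Hspd1 start, but not in that of the latter. The corresponding window of Hspa1a had 0 bases different from that of Hspa1b, and the full 300-base promoters of the pair differed at 4 bases. A match of letters is a description and does not show binding by a factor.

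Of the 78 members 10 rose and 8 fell with Sardomozide, and 60 did not pass edgeR's quasi-likelihood test at an adjusted p of 0.05, the threshold for calling a gene. The 18 called members made up 23.1% of the 78, where 16.3% of all tested genes were called. By direction, 12.8% of members rose and 10.3% fell, against a background of 7.88% and 8.45%. The shares depended on expression level: 11 of 28 members over 100 CPM were called (39.3%, against 28.3% of all genes at that level), 7 of 40 between 10 and 100 CPM (17.5% against 17.3%) and 0 of 10 under 10 CPM (against 7.61%). None of those 10 passed, and 2 of them had an unadjusted p under 0.05 in edgeR's test. Changes were small. The median fold of the called members was 1.13 (1.20 over all called genes), and the largest was the 1.30-fold fall of Cryab. The groups did not overlap for 35 members, where 33.5% of all tested genes did not overlap. The members that rose numbered 5 without DMSO replicate 1, 4 without DMSO replicate 2 and 5 without DMSO replicate 3, while those that fell numbered 3 without DMSO replicate 1 and 5 without DMSO replicate 3, Sardomozide replicate 2 or Sardomozide replicate 3. Leaving out Sardomozide replicate 2, however, raised the number that rose to 13.

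**Figure D1:**
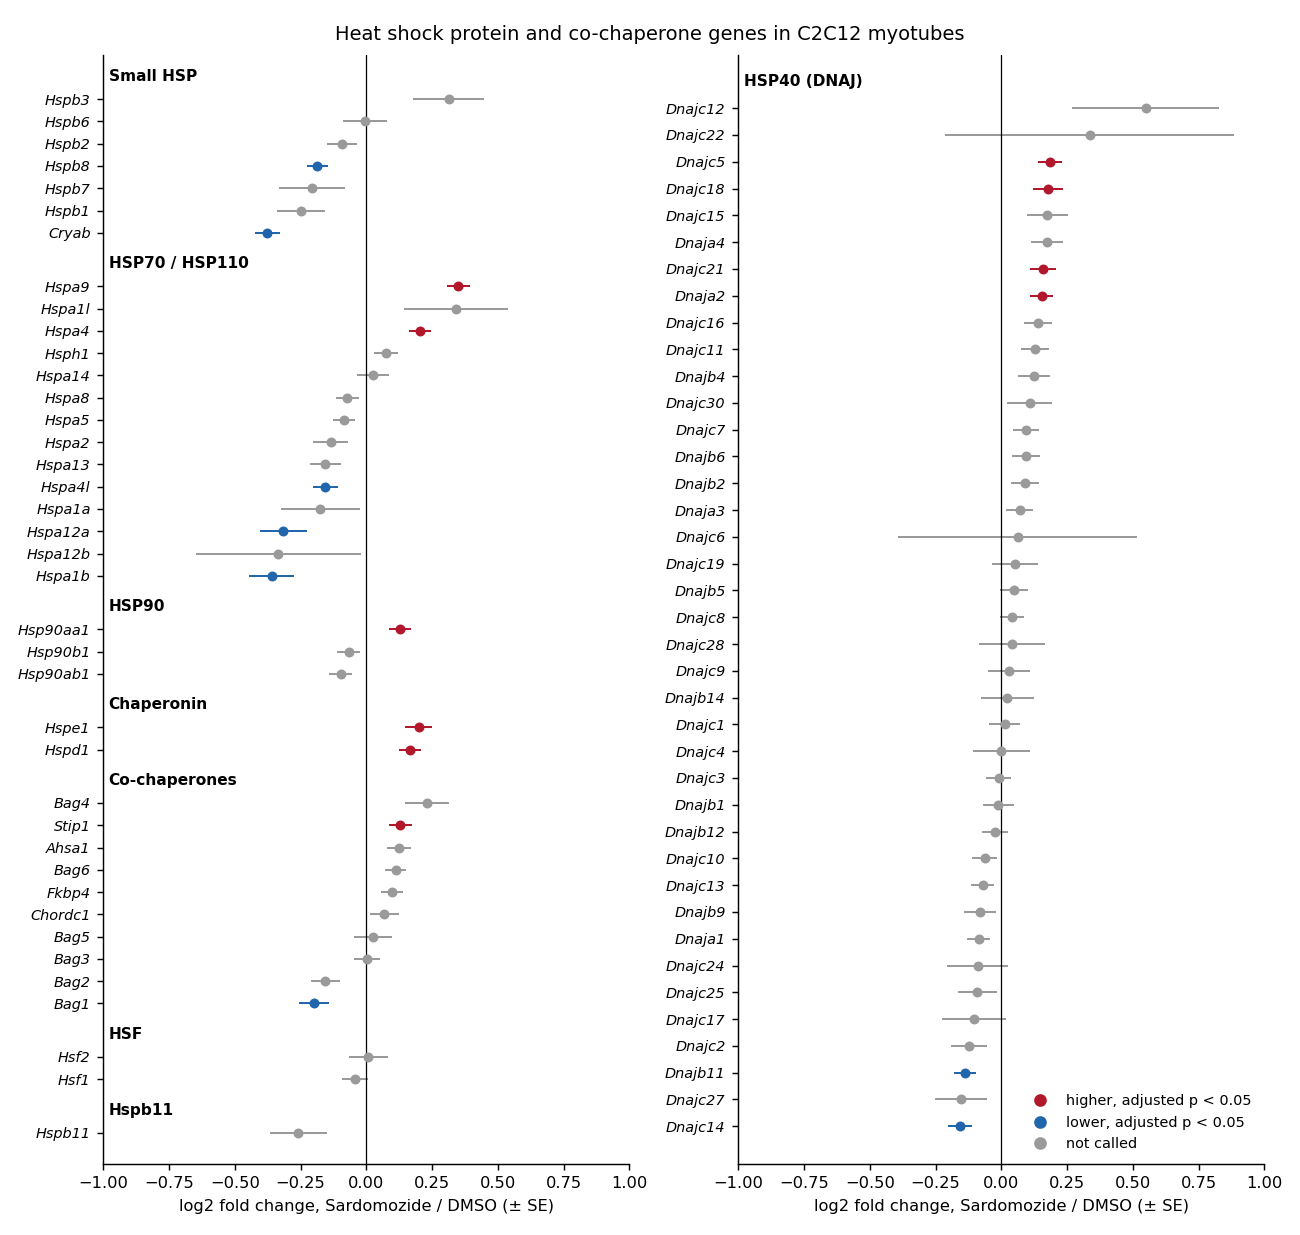
Log2 fold change of each of the 78 members with its standard error on the x axis, one gene per line within its class. The 10 genes that rose are red, the 8 that fell are blue and the 60 not called are grey, and 6 of 7 small heat shock protein genes lie below 0.

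Library totals ran from 25496323 to 36709804 counts. Of 10 myotube markers 10 were tested, and their summed level was 19556 to 20917 CPM with DMSO and 19664 to 22562 CPM with Sardomozide. Sardomozide replicate 2 stood apart in Ttn, the titin gene, with 4043 CPM against 1372 to 1745 CPM in the other 5 libraries. The summed level of 6 markers of cycling or undifferentiated myoblasts was 333 to 353 CPM with DMSO and 360 to 394 CPM with Sardomozide, and that of 5 fibroblast markers 31.2 to 37.7 and 19.4 to 26.2 CPM. Of the markers Myog, the myogenin gene, rose (log2 fold change 0.24, edgeR adjusted p = 0.000547), as did Mki67 (log2 fold change 0.16, edgeR adjusted p = 0.0443), and Dcn fell (−0.77, edgeR adjusted p = 0.00187). No other marker was called, and the other myotube and myoblast markers lay on both sides of 0. Examples are Actn2 (−0.39, edgeR adjusted p = 0.0840), Ckm (−0.12) and Myh3 (0.07), and Myf5 (−0.15) and Top2a (0.22). For Mki67 the adjusted p was 0.0943, 0.0886 and 0.16 when DMSO replicate 1, 2 and 3 were each left out, 0.231 and 0.0793 for Sardomozide replicate 2 and 3, and 0.0588 with DESeq2. The part of these shifts in the results below was not tested. All 4 adipocyte markers, the leukocyte genes Ptprc and Adgre1 and the neuronal genes Rbfox3 and Snap25 had 0 counts in every library. The counts come from bulk RNA, in which fewer cells of a type and less RNA per cell cannot be told apart.

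In DMSO-treated myotubes Hsp90ab1, the constitutive cytosolic HSP90, stood far above every other member. Its level per length was 1040 ± 9.21 CPM per kilobase of annotated exon (SD, n = 3). Next came Cryab (288 ± 20.7 CPM per kilobase), the alphaB-crystallin gene, and Hspa8 (274 ± 7.76), the constitutive HSP70, whose DMSO libraries overlapped each other. Bag1 followed at 250 ± 4.81 CPM per kilobase. The endoplasmic reticulum chaperones Hsp90b1 (182 ± 7.57) and Hspa5 (178 ± 4.19) overlapped each other, and Hspa5 overlapped Hspb1 (163 ± 20.9), which overlapped Dnaja2 (162 ± 4.23), the highest HSP40 gene. Hspa9 stood at 132 ± 1.78 and Hspb8 at 122 ± 0.896 CPM per kilobase, each separate from its neighbours. At the low end Dnajc6 and Dnajc22 had 0.126 ± 0.0735 and 0.173 ± 0.0728 CPM per kilobase. The length used joins all annotated exons of a gene, 4301 bases for Hspa8 and 1479 for Cryab. Their longest coding transcripts have 2394 and 1117 bases, so the order of close genes such as these depends on the length chosen. The 78 members together took 1.36 ± 0.0115% of all counts with DMSO and 1.34 ± 0.0292% with Sardomozide.

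Of the 7 small heat shock protein genes 2 fell and 0 rose, and 6 had a log2 fold change below 0. The shares over all tested genes were 8.45% that fell and 7.88% that rose. Cryab, whose product protects desmin and titin, lies on chromosome 9 (50751325 to 50756636, GRCm38). Its level was 400, 460 and 419 CPM with DMSO and 327, 322 and 337 CPM with Sardomozide. Every Sardomozide library was below every DMSO library, and Cryab fell by 22.9% (log2 fold change −0.38 ± 0.0482 (SE), edgeR adjusted p = 2.26e-05). Hspb8, the partner of BAG3 in delivering damaged filament proteins to autophagy, had 236, 239 and 237 CPM with DMSO and 206, 215 and 206 CPM with Sardomozide. The groups were again separate, and Hspb8 fell by 12.1% (−0.19 ± 0.0407, edgeR adjusted p = 0.00333). Both calls held in all 14 other settings tried.

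The remaining 5 small heat shock protein genes were not called. Hspb1, the HSP25 gene (chromosome 5, 135887919 to 135889563), had 188, 171 and 145 CPM with DMSO and 145, 146 and 133 CPM with Sardomozide. DMSO replicate 3 lay within the Sardomozide range, and the log2 fold change was −0.25 ± 0.0896 (edgeR adjusted p = 0.107). Without DMSO replicate 3 the adjusted p was 0.000444, and it was 0.00935 with DESeq2, 0.0336 with limma-voom and 0.0259 without robust estimation. Of the 150-base windows of the Hspb1 transcript, 36.6% also lie in the pseudogene Hsp25-ps1, so its counts are uncertain. Hspb7, a gene of heart and skeletal muscle, had 213, 239 and 252 CPM with DMSO and 237, 192 and 181 CPM with Sardomozide. Sardomozide replicate 1 lay inside the DMSO range, and the log2 fold change was −0.21 ± 0.125 (edgeR adjusted p = 0.354), with an adjusted p of 0.00351 without that library. Hspb2, the neighbour of Cryab, had 48.4, 51.3 and 54.3 CPM with DMSO and 47.6, 49.7 and 47.2 CPM with Sardomozide (−0.09 ± 0.0581, edgeR adjusted p = 0.305). Hspb2 and Cryab share 252 exonic bases on opposite strands, and whether the deposited counts used strand is not given in the sources used here. Hspb6 had 16.6, 17.8 and 17.8 against 16.9, 17.2 and 17.9 CPM (−0.01 ± 0.0846). Hspb3, the lowest of the class, went the other way, with 5.39, 5.76 and 5.94 CPM against 7.79, 6.31 and 7.14 CPM (0.31 ± 0.135, edgeR adjusted p = 0.125), and these groups did not overlap. Hspb11, which carries the family name but encodes an intraflagellar transport protein and was kept out of the class, had 11, 10.4 and 10.2 against 9.13, 8.94 and 8.32 CPM (−0.26 ± 0.109, edgeR adjusted p = 0.117).

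**Figure D2:**
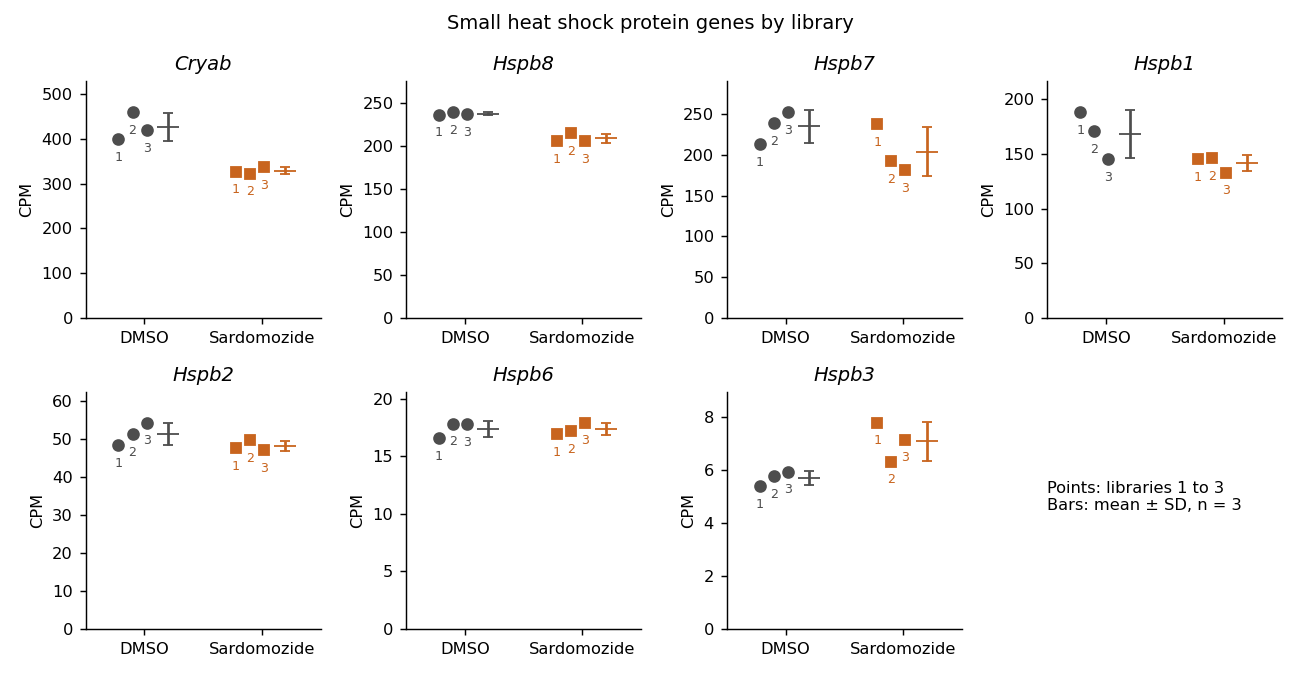
Level of the 7 small heat shock protein genes in CPM by library on axes that start at 0, with the mean and SD of 3 libraries beside the points. Cryab and Hspb8 are lower in all 3 Sardomozide libraries, while DMSO replicate 3 for Hspb1 and Sardomozide replicate 1 for Hspb7 lie in the other group's range.

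Against the HSP70, HSP90 and HSP40 genes the small heat shock proteins had lower log2 fold changes. The median log2 fold change was −0.19 over the 7 small heat shock protein genes and 0.02 over the 56 HSP70, HSP90 and HSP40 genes, a difference of −0.21, while the median over all genes tested was −0.0008. A value below 0 was seen for 6 of 7 small heat shock protein genes and for 25 of the 56 others. By class the median was −0.11 for HSP70 (9 of 14 below 0), −0.07 for HSP90 (2 of 3) and 0.04 for HSP40 (14 of 39). Most of the 56 are HSP40 genes, so the pooled value hides the lower medians of HSP70 and HSP90. Of the 7, 0 rose and 2 fell, and of the 56, 7 rose and 5 fell (12.5% and 8.93%, against 7.88% and 8.45% of all tested genes). The summed level of the 7 genes was 1107, 1183 and 1132 CPM with DMSO and 987, 948 and 929 CPM with Sardomozide, a difference of −16.3%. Without Cryab the sum was 715 ± 8.29 CPM with DMSO and 626 ± 34.4 CPM with Sardomozide (−12.4%). The summed level of the 56 genes was 10494 ± 121 CPM and 10470 ± 226 CPM (−0.222%), and these groups overlapped. No p is given for these sums, since the genes were chosen with results known. With means in place of medians the difference between the classes was −0.13, Hspb3 being the member with the opposite sign.

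**Figure D3:**
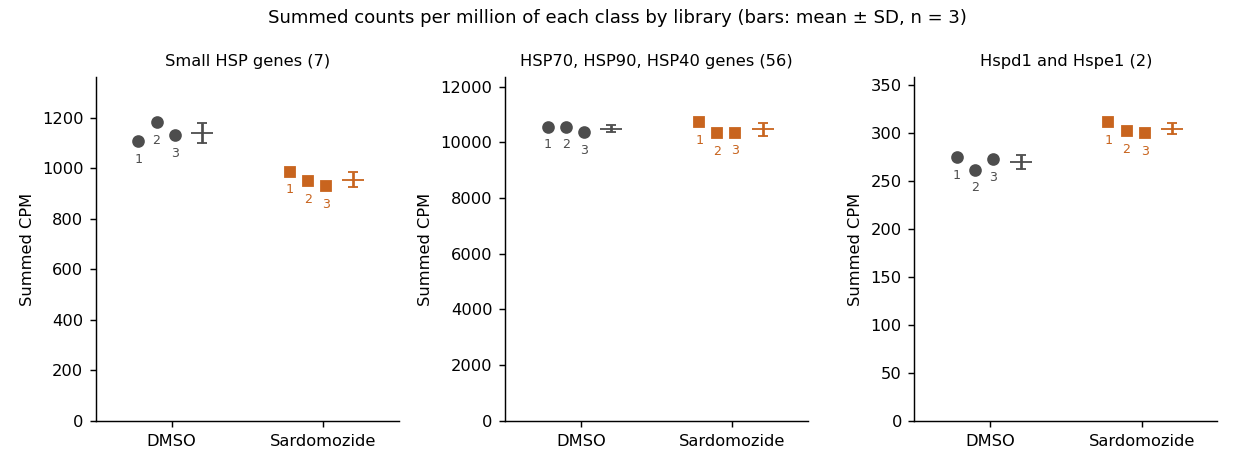
Summed CPM of the 7 small heat shock protein genes, the 56 HSP70, HSP90 and HSP40 genes and the pair Hspd1 and Hspe1 by library, on axes that start at 0. The small heat shock protein sum lies between 929 and 987 CPM in the Sardomozide libraries and between 1107 and 1183 CPM in the DMSO libraries, whereas the sums of the 56 genes overlap.

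Of 14 HSP70 and HSP110 genes, 2 rose, 3 fell and 9 did not pass. The largest rise was that of Hspa9, which encodes mortalin, the HSP70 of the mitochondrial matrix that pulls imported proteins inward. Hspa9 (chromosome 18, 34937414 to 34954357) had 570, 574 and 559 CPM with DMSO and 743, 741 and 687 CPM with Sardomozide. The groups were far apart relative to their spread, and the rise was 27.4% (log2 fold change 0.35 ± 0.0438, edgeR adjusted p = 1.66e-05). Hspa1b, an inducible cytosolic HSP70, had 33.9, 33.5 and 34.4 CPM with DMSO and 30.7, 22.9 and 25.5 CPM with Sardomozide. All Sardomozide libraries were lower, with a wider spread than the DMSO libraries, and Hspa1b fell by 22.1% (−0.36 ± 0.0864, edgeR adjusted p = 0.00748). Its near-identical copy Hspa1a had 9.17, 7.75 and 9.32 CPM against 9.65, 7.39 and 6.08 CPM (−0.18 ± 0.149, edgeR adjusted p = 0.476). The copies share 39.7% of the 150-base windows of Hspa1a and 40.5% of those of Hspa1b with other genes, so reads may have been split between them. Their summed level was 43.1, 41.2 and 43.8 CPM with DMSO and 40.4, 30.3 and 31.6 CPM with Sardomozide, still without overlap.

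The abundant constitutive HSP70 genes were not called. Hspa8 had 1198, 1198 and 1140 CPM with DMSO and 1142, 1082 and 1138 CPM with Sardomozide (log2 fold change −0.07 ± 0.0439, edgeR adjusted p = 0.283), with DMSO replicate 3 inside the Sardomozide range. Copies elsewhere share 55.4% of its transcript windows. Hspa5, the BiP gene, had 756, 766 and 732 against 682, 717 and 726 CPM without overlap (−0.09 ± 0.0432, edgeR adjusted p = 0.195). Hspa2, Hspa13 and Hspa14 had overlapping groups and log2 fold changes of −0.14, −0.16 and 0.03, and the scarce Hspa1l and Hspa12b had 0.34 ± 0.197 and −0.33 ± 0.315. Hspa12a, a distant relative of HSP70, had 45.6, 34.3 and 40.7 CPM with DMSO and 30, 32.8 and 34 CPM with Sardomozide. It fell by 19.6% (−0.31 ± 0.0887, edgeR adjusted p = 0.0244), although DMSO replicate 2 came within 0.3 CPM of the highest Sardomozide library. It did not pass when DMSO replicate 1 or 3, or Sardomozide replicate 1 or 2, was left out (adjusted p = 0.115, 0.085, 0.0953 and 0.0559).

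The HSP110 genes, whose products reset HSP70 by nucleotide exchange, moved in opposite directions. Hspa4 (chromosome 11, 53259814 to 53300457) had 359, 350 and 345 CPM with DMSO and 411, 408 and 396 CPM with Sardomozide, a rise of 15.2% (log2 fold change 0.20 ± 0.0406, edgeR adjusted p = 0.00154). Its paralogue Hspa4l had 98.6, 103 and 97.6 CPM against 92.6, 90.5 and 85.5 CPM and fell by 10.3% (−0.16 ± 0.0476, edgeR adjusted p = 0.0281). Neither pair of groups overlapped. The log2 ratio of Hspa4 to Hspa4l, a pair singled out after its values were seen, was 1.82 ± 0.0532 with DMSO and 2.18 ± 0.0322 with Sardomozide. The fall of Hspa4l was lost on leaving out DMSO replicate 1, 2 or 3 or else Sardomozide replicate 3 (adjusted p = 0.067, 0.127, 0.0504 and 0.126). The third gene of the subgroup, Hsph1, had 163, 162 and 155 against 172, 161 and 173 CPM (0.08 ± 0.0445, edgeR adjusted p = 0.276).

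Among the 3 HSP90 genes the inducible cytosolic form Hsp90aa1 rose, with 453, 453 and 431 CPM with DMSO and 508, 477 and 477 CPM with Sardomozide (log2 fold change 0.13 ± 0.0431, edgeR adjusted p = 0.0461). The rise of 9.33% lay close to the threshold. It was lost without DMSO replicate 1, 2 or 3 (adjusted p = 0.091, 0.0806 and 0.22), without Sardomozide replicate 1 or 3 (0.126 and 0.0618), with the stricter filter (0.0524) and without robust estimation (0.0595). The constitutive form Hsp90ab1 had 3091, 3146 and 3121 CPM with DMSO and 3046, 2846 and 2853 CPM with Sardomozide. Its groups did not overlap, yet it was not called (−0.10 ± 0.0449, edgeR adjusted p = 0.148), and it passed without Sardomozide replicate 1 (adjusted p = 0.0402). Hsp90b1, the GRP94 gene of the endoplasmic reticulum, had 765, 729 and 704 against 713, 684 and 702 CPM (−0.07 ± 0.044, edgeR adjusted p = 0.34). Of the transcript windows of Hsp90aa1, 36.2% also lie in other genes.

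Both chaperonin genes rose, where 7.88% of all tested genes did. Hspd1, the HSP60 gene (chromosome 1, 55077835 to 55088243), had 207, 197 and 206 CPM with DMSO and 234, 224 and 228 CPM with Sardomozide, a rise of 12.3% (log2 fold change 0.17 ± 0.0417, edgeR adjusted p = 0.00848). Hspe1, the HSP10 gene (55088132 to 55091307), had 67.4, 65 and 66.4 against 77.8, 77.9 and 72.4 CPM, a rise of 14.8% (0.20 ± 0.0505, edgeR adjusted p = 0.00984). The log2 ratio of Hspd1 to Hspe1 was 1.62 ± 0.0181 with DMSO and 1.59 ± 0.0647 with Sardomozide, and the ratios of the groups overlapped. The run of heat shock units shown above is a single stretch of DNA that lies in the Hspe1 window. It also lies in the window of the Hspd1 start 216 bases from the Hspe1 start, but not in that of the other Hspd1 start. Its part in the rise was not tested. The genes share 112 exonic bases on opposite strands, and 18.6% of the transcript windows of Hspd1 and 14.1% of those of Hspe1 also lie in other genes, so their counts are uncertain. The call of Hspd1 was lost without DMSO replicate 2 (adjusted p = 0.0608).

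HSP40 genes encode J-domain proteins, which bring clients to HSP70. Of 39 kept, 4 rose, 2 fell and 33 did not pass (10.3% and 5.13%, against 7.88% and 8.45% of all tested genes). Dnaja2, the most abundant, had 476, 475 and 497 CPM with DMSO and 555, 544 and 512 CPM with Sardomozide and rose by 11.3% (log2 fold change 0.15 ± 0.0437, edgeR adjusted p = 0.0191). Dnajc5, which encodes cysteine string protein, rose by 13.7%, with 135, 141 and 133 against 146, 158 and 162 CPM (edgeR adjusted p = 0.00939). Dnajc18 and Dnajc21, the latter a ribosome assembly factor gene, rose by 0.18 ± 0.0559 and 0.16 ± 0.0486 on the log2 scale (edgeR adjusted p = 0.0334 and 0.0294). Dnajb11, a co-chaperone of BiP, fell by 9.08%, with 153, 157 and 148 against 138, 141 and 138 CPM (edgeR adjusted p = 0.031). Dnajc14 fell from 102 ± 1.74 to 91.3 ± 2.82 CPM (edgeR adjusted p = 0.0215), and 1114 of its exonic bases overlap Ormdl2 on the opposite strand, a gene that was not called (0.16 ± 0.12). Dnajc15 and Dnaja4 had the largest differences among those not called with at least 10 CPM, both 0.17 on the log2 scale (SE 0.0781 and 0.0613). The 33 not called ran from −0.15 for Dnajc27 to 0.55 for Dnajc12, and the lowest edgeR adjusted p among them was that of Dnaja4, 0.0583. Dnajb1, the classical heat-inducible HSP40, had 82.7, 70.1 and 76.5 against 75.1, 79.3 and 72.9 CPM (−0.01 ± 0.0579).

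Each of the 6 HSP40 calls was lost in some fits without a library. Dnaja2 was lost without DMSO replicate 1 or 2 (adjusted p = 0.0882 and 0.0815) and Dnajc5 when DMSO replicate 3 or Sardomozide replicate 3 was left out (0.0514 and 0.055). Dnajc18 was lost on leaving out DMSO replicate 1, 2 or 3 or else Sardomozide replicate 3 (0.0548, 0.155, 0.0689 and 0.144), and Dnajc21 without any library other than Sardomozide replicate 3 (0.0572 to 0.102). Dnajb11 was lost when DMSO replicate 1 or 2 or Sardomozide replicate 1 or 3 was left out (0.0894, 0.128, 0.0527 and 0.0835), and Dnajc14 without any library other than Sardomozide replicate 1 (0.0505 to 0.0926). Conversely Dnaja4 and Dnajc15 passed without Sardomozide replicate 3 (0.0392 and 0.0491), and Dnaja4 also with no filter on low counts (0.0345).

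Sorted by organelle, a grouping made after the values were seen, the chaperones listed here for mitochondria and for the endoplasmic reticulum differed in sign. The mitochondrial group held Hspa9, Hspd1, Hspe1, Dnaja3, Dnajc11, Dnajc15, Dnajc19 and Dnajc30. All 8 had a log2 fold change above 0, from 0.05 for Dnajc19 to 0.35 for Hspa9, with a median of 0.15. Of the 8, 3 were called (37.5%, against 16.3% of all tested genes). The endoplasmic reticulum group held Hspa5, Hsp90b1, Hspa13, Dnajb9, Dnajb11, Dnajc1, Dnajc3 and Dnajc10. Of these 7 lay below 0, Dnajc1 being the exception at 0.01, with a median of −0.07, and only Dnajb11 was called (12.5% of the group). The groups may be incomplete. Among the 62 members outside both, Dnajc18 (0.18, rose), Dnajc16 (0.14) and Dnajb14 (0.02) lay above 0, and Dnajb12 (−0.02), Dnajc25 (−0.09) and Dnajc14 (−0.16, fell) below. These genes were not assigned to either organelle, and the difference in sign rests on the members chosen. It therefore does not describe all chaperones of either organelle. The log2 ratio of Hspa9 to Hspa5, the HSP70 genes of these organelles, was −0.41, −0.42 and −0.39 with DMSO and 0.12, 0.05 and −0.08 with Sardomozide. Those groups did not overlap, and no test of this difference was made.

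**Figure D4:**
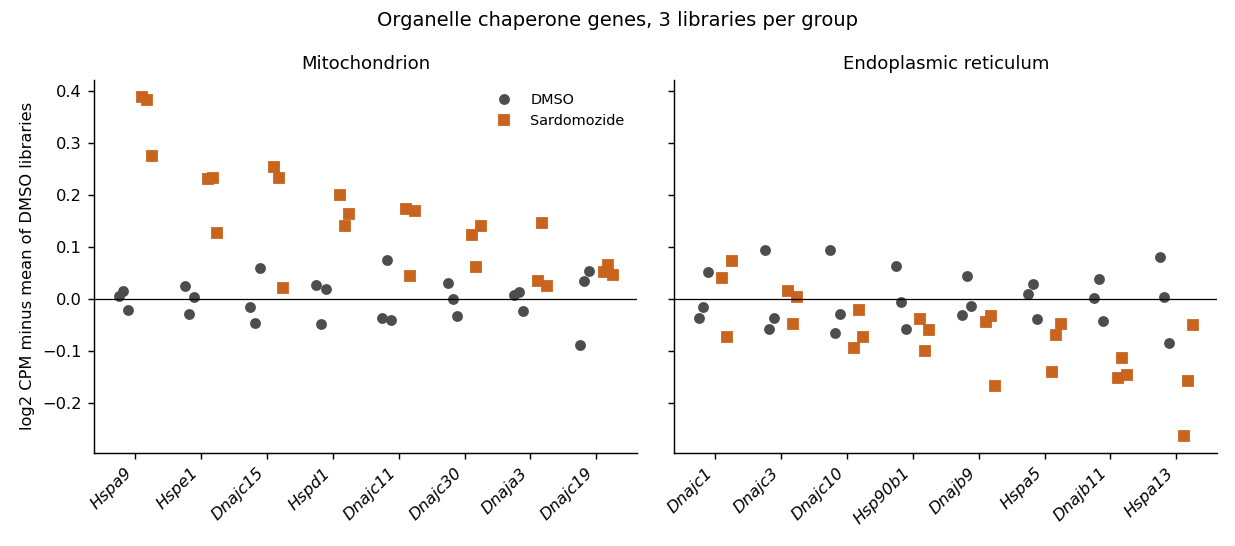
Log2 CPM of each gene minus its mean over the DMSO libraries, for 8 mitochondrial and 8 endoplasmic reticulum chaperone genes, with 1 point per library. Sardomozide libraries lie above all DMSO libraries for Hspa9, Hspe1, Hspd1, Dnaja3 and Dnajc30 and below them for Dnajb11, Hspa5 and Dnajb9.

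Of 10 co-chaperone genes 1 rose, 1 fell and 8 did not pass. The shares, 10% and 10%, were near the 7.88% and 8.45% of all tested genes. Bag1, which couples HSP70 to the proteasome, had 337, 331 and 344 CPM with DMSO and 327, 281 and 272 CPM with Sardomozide. Sardomozide replicate 1 lay close to the DMSO libraries, and Bag1 fell by 13.0% (log2 fold change −0.20 ± 0.0569, edgeR adjusted p = 0.0239). The call was lost on leaving out DMSO replicate 1 or 3 or else Sardomozide replicate 2 or 3 (adjusted p = 0.0851, 0.0941, 0.0795 and 0.0987). Stip1, the HOP gene whose product hands clients from HSP70 to HSP90, had 239, 241 and 242 against 277, 256 and 256 CPM and rose by 9.38% (0.13 ± 0.043, edgeR adjusted p = 0.0445). That call held without Sardomozide replicate 2 and was lost without any other library (0.0509 to 0.146), with limma-voom (0.0514), with the stricter filter (0.05) and without robust estimation (0.0567).

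Bag3, the partner of Hspb8 and a known target of HSF1, had 157, 163 and 168 CPM with DMSO and 174, 151 and 165 CPM with Sardomozide. The log2 fold change was 0.00 ± 0.0503 (edgeR adjusted p = 0.977), with full overlap. Bag4 had 17.4, 17.4 and 17.3 against 21.7, 19.5 and 19.9 CPM without overlap, and was not called (0.23 ± 0.0827, edgeR adjusted p = 0.0606). Bag2 had 56.9, 57.1 and 58.1 against 54.5, 48.4 and 51.5 CPM (−0.16 ± 0.0563, edgeR adjusted p = 0.0646) and passed without Sardomozide replicate 1 (0.0274). Bag6 (0.11 ± 0.0413), the HSP90 ATPase activator gene Ahsa1 (0.12 ± 0.0464) and Fkbp4 (0.10 ± 0.0421), an immunophilin gene, lay above 0 without overlap and were not called. Bag6 and Ahsa1 passed without Sardomozide replicate 2 (adjusted p = 0.0468 and 0.0381). Bag5 (0.03 ± 0.0733) and Chordc1 (0.07 ± 0.0551) had overlapping groups.

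Neither heat shock factor gene was called. Hsf1 (chromosome 15, 76477422 to 76501913) had 78, 76.1 and 74.1 CPM with DMSO and 74.6, 75.3 and 71.5 CPM with Sardomozide (log2 fold change −0.04 ± 0.0488, edgeR adjusted p = 0.609). Hsf2 had 27.2, 30.3 and 28.4 against 27.8, 27.5 and 31.2 CPM (0.01 ± 0.0736, edgeR adjusted p = 0.964). HSF1 acts after changes to the protein that transcript counts do not measure. Among the 18 members with a 2-unit heat shock motif 2 rose, 2 fell and the median log2 fold change was 0.04. Among the 44 without it 4 rose, 5 fell and the median was 0.01. Members with no promoter entry are in neither group, among them the called Cryab, Hspa9, Hsp90aa1, Dnajc5 and Dnajc18. The heat-inducible Dnajb1 stood among those without the motif, so the split does not sort genes by HSF1 control. The shares over all tested genes were 7.88% that rose and 8.45% that fell. The 4 called members with the motif were Hspd1 and Hspe1, which rose, and Hspb8 and Hspa1b, which fell.

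The partners of these chaperones outside the gene name rule were described from 5 lists. Their counts stand beside 7.88% that rose and 8.45% that fell over all tested genes. Of 14 genes of the cytosolic chaperonin TRiC and of prefoldin, which fold actin and tubulin, 3 rose and 0 fell, with a median log2 fold change of 0.06. Cct3 rose from 247 ± 0.571 to 276 ± 3.49 CPM and Cct6a from 249 ± 2.59 to 283 ± 7.51 CPM (edgeR adjusted p = 0.00763 and 0.00335). Cct7 rose by 0.14 on the log2 scale, with an edgeR adjusted p of 0.0249 that was above 0.05 without any library other than Sardomozide replicate 1 (0.0621 to 0.102). Of 20 HSP90 partners 5 rose and 0 fell (median 0.08), those with the lowest adjusted p being Tomm70a, a mitochondrial import receptor gene, Ppid, a cyclophilin gene, and Ruvbl1, which rose by 0.17, 0.18 and 0.20 on the log2 scale (edgeR adjusted p = 0.0134, 0.0158 and 0.0211). Tomm70a was lost when DMSO replicate 1 or Sardomozide replicate 2 was left out (0.0919 and 0.0591), Ppid on leaving out DMSO replicate 2 or 3 or else Sardomozide replicate 1 (0.054, 0.0571 and 0.0606), and Ruvbl1 when DMSO replicate 1 or 3 or Sardomozide replicate 2 was left out (0.0815, 0.0716 and 0.0516).

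Of 13 tested HSP70 partners 1 rose, Grpel2, a nucleotide exchange factor gene of the mitochondrial HSP70 (0.26 ± 0.0779, edgeR adjusted p = 0.0288), and 0 fell. It was lost on leaving out DMSO replicate 1, 2 or 3 or else Sardomozide replicate 3 (0.124, 0.0606, 0.0566 and 0.128). Of 12 genes of chaperone-assisted autophagy and its Z-disc clients 0 rose and 1 fell, the autophagy receptor gene Sqstm1 (488 ± 8.12 to 439 ± 17 CPM, edgeR adjusted p = 0.017), which was lost when DMSO replicate 1 or 2 or Sardomozide replicate 2 or 3 was left out (0.076, 0.0599, 0.0678 and 0.0532). In the list of 11 other heat shock factor, regulator and heat-inducible genes 1 rose and 2 fell. Zfand2a, a stress-induced gene of the proteasome, rose from 41.6 ± 4.05 to 51.4 ± 1.79 CPM (edgeR adjusted p = 0.00336). Ubb fell by 0.14 on the log2 scale, with an edgeR adjusted p of 0.0476 that was above 0.05 without any library other than Sardomozide replicate 1 (0.0644 to 0.202). Over the 68 genes of all 5 lists 10 rose (14.7%) and 3 fell (4.41%), against the background of 7.88% and 8.45%. That background depends on level: of all genes over 100 CPM 13.8% rose and 14.5% fell. The lists held genes above and below 100 CPM. Fewer were called on leaving out DMSO replicate 1, 2 or 3 or else Sardomozide replicate 3 (5, 7, 7 and 7 in all).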

How the data were processed

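RNA of 6 C2C12 myotube samples was sequenced on an Illumina instrument with paired reads of 150 bases, per the labels' protocols. For every library the authors deposited unnormalized counts of reads by gene symbol. STAR, StringTie and DESeq2 and the builds GRCm38 and mm10 are listed in the submitters' processing notes. Versions, annotation, strand setting and treatment of reads with several matches were not given in the sources used here.

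Groups came from the labels. Counts of all genes were filtered with filterByExpr (minimum count 10, total 15), scaled by TMM and tested in R 4.3.3 with edgeR 4.0.16 (quasi-likelihood F test, two-sided, robust estimation, treatment as the only term), with Benjamini-Hochberg adjustment over 13076 genes. DESeq2 1.42.0, limma-voom (limma 3.58.1), other scalings and filters, a replicate block and fits without each library were alternatives. CPM use TMM-scaled sizes; SE was derived from the fold change and F. Exon lengths and coordinates are from GENCODE M21 (GRCm38), matched for all 78 members. Limits for 0 counts (3 counts) cover counting error only. Replicates differed beyond sampling noise (chi-square per degree of freedom 5.45 to 16.1), so all were kept. The fit was tested on simulated counts.

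The members, lists and tests were chosen with earlier results of these data known. Named genes were all small heat shock proteins, heat shock factors, HSP110, BAG and other co-chaperone genes, the major HSP70, HSP90 and chaperonin genes, the called HSP40 genes (up to 6 per direction), the 2 largest HSP40 differences not called, and up to 3 called genes per partner list. Hspb11, the other HSP70 genes, Dnajb1, Dnajc6, Dnajc12, Dnajc27, the organelle groups, the ratios, the promoter windows and the shared-sequence counts were added after values were seen. The values of 1 called partner gene are not reported here.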

Additional observations from a re-analysis of the deposited data

How the results depend on the processing

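Of the 18 called members, 6 (Cryab, Hspb8, Hspa9, Hspa4, Hspa1b and Hspe1) were called in all 14 other settings, and 13 in all 8 settings that kept every library. Of 23 named members not called, 8 passed in some setting. No called value changed sign. Leaving out each library in turn gave 4 to 13 members higher, 3 to 9 lower, 620 to 927 of all genes higher, 706 to 1025 lower, and 5 to 12 partner genes called; the cause was not tested beyond the smaller number of libraries. The class difference of −0.21 ran from −0.19 to −0.16 in those fits and was −0.13 with means in place of medians. With the replicate number as a block 6 members rose and 8 fell. Dnaja2 (adjusted p = 0.0505), Dnajb11 (0.0588), Dnajc21 (0.0587), Hsp90aa1 (0.0811) and Stip1 (0.0829) were then lost and Hspb1 passed (0.00465), as were Cct7 (0.0535), Ubb (0.0729) and Mki67 (0.0518) lost. The labels do not say that a number marks a shared batch. Same-numbered libraries did not deviate together (r from −0.02 to 0.02 over genes). DMSO replicate 1 was not closest to its own number, by a small margin (r = 0.0219, against 0.0261 with Sardomozide replicate 2). With 3 libraries per group these values cannot show whether same-numbered samples share a batch. Depth limits the members under 10 CPM, whose standard errors reached 0.549 on the log2 scale for Dnajc22.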
